A study of Homo sapiens with 36 samples.

Results

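The 7 noncoding loci described here are 2 unnamed genes and 1 long intergenic noncoding gene in a chromosome 14 stretch (ENSG00000309897, ENSG00000309915 and LINC02324), 1 unnamed gene and 2 pseudogenes of RPS4X in a chromosome 19 stretch (ENSG00000287526, RPS4XP23 and RPS4XP20), and ENSG00000280800 on chromosome 21. They are 7 of the 74628 genes in the count table. They were chosen by identifier because an earlier look at the same counts found them present with a control guide and nearly absent with a guide against RELA, so the contrast between guides is given below as a description, with no test. For 6 of the 7 the libraries fit that description. ENSG00000280800 does not: it had counts in 16 of 18 libraries with the control guide and in 15 of 18 with the RELA guide.

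The cells were Jurkat, a T-lymphocyte leukaemia line. All of them, controls included, stably expressed dCas9-VP64, a Cas9 without nuclease activity joined to a transcriptional activator, and carried mCherry. They were transduced with a pXPR lentiviral vector carrying sgRELA, a guide against the NF-kB gene RELA, or sgControl, labelled non-targeting, and selected with puromycin for 3 days. Cells were harvested on day 5, 6 or 7, with 3 biological replicates for each guide and day and 2 libraries per RNA sample, 36 libraries in all. The replicates are transductions of 1 cell line, as far as the labels say with 1 guide per group, so an effect of RELA and of that 1 guide, or of the control guide, cannot be told apart.

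RamDA-seq copies total RNA and reads transcripts with and without a poly(A) tail. Each library started from 100 pg of RNA. Library totals ran from 7586205 to 13671902 counts with sgControl and from 8822904 to 16124473 with sgRELA. RELA was at 27.1 ± 2.77 CPM (a count scaled for the total of its library) with sgControl and 209.4 ± 12.9 CPM with sgRELA (SD, n = 3 sums over days), a log2 difference of 2.95 ± 0.07 (SE). All 10 T-cell markers checked were at 1 CPM or more with both guides, and their summed level was 2306 to 3383 CPM with sgControl and 2491 to 3553 CPM with sgRELA. Of the 4 B-cell markers 1 passed 1 CPM, CD79A, at 19.9 CPM with sgControl and 56.0 CPM with sgRELA, and their summed level was 16.5 to 26.2 and 48.3 to 62.7 CPM. That of 4 myeloid markers was 0.316 to 2.41 and 1.12 to 3.99 CPM. HBA1, HBA2 and HBB were at 0 in every RNA sample. The part of CD79A and the myeloid markers in the results below was not tested. In bulk RNA, fewer cells that express a gene and less RNA per cell cannot be told apart.

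A processed pseudogene is a copy of a spliced mRNA that was written back into the genome, so it lacks introns and usually the promoter of its parent. RPS4X, the parent here, encodes a protein of the small ribosomal subunit and is expressed in all cells. Long intergenic noncoding RNAs are spliced or unspliced transcripts with no known protein, and the function of LINC02324 and of the unnamed loci is not stated in the sources used here. The genes of ribosomal RNA lie in repeated units on the short arms of several chromosomes, and the units are nearly identical in sequence.

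The sequences below show how far each locus can be told from its copies. RPS4XP23 lies at chr19:34021659-34021895 on the plus strand (GRCh38, GENCODE v29) and is a single exon of 237 bases. It aligned to bases 658 to 897 of the 1526-base RPS4X transcript with 87.7% identity, 19 mismatches and 11 gap columns. RPS4XP20 lies at chr19:34022656-34023427 on the minus strand, 760 bases away, with 772 bases, and aligned to bases 107 to 877 with 88.5% identity. Capitals mark bases that differ from RPS4X or are inserted relative to it, and a base missing from the pseudogene leaves no mark. The whole of RPS4XP23 and the first 240 bases of RPS4XP20 are printed.
RPS4XP23: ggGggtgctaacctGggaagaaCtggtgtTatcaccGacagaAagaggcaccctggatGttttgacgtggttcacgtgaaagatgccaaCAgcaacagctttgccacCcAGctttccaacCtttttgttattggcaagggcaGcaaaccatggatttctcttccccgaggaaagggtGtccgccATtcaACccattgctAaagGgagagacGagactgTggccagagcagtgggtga
RPS4XP20: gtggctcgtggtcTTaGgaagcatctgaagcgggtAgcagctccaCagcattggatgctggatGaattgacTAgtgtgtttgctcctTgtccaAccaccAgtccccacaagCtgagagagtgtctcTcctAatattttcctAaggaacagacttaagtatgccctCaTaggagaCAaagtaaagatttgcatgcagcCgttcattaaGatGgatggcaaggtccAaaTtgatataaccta
The differences are spread along both copies. None of the 188 stretches of 50 bases in RPS4XP23 occurred in a transcript of another gene, and 11 of 723 did in RPS4XP20 (1.52%, in RPS4X and RPS4XP17). Of 100-base stretches, 0 of 138 and 0 of 673 did. The search covered annotated transcripts and not the rest of the genome.

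ENSG00000280800 is the opposite case. It lies at chr21:8210384-8211306 on the minus strand (923 bases, 1 exon), inside the gene ENSG00000278996 but sharing 0 bases with its exons, and 1265 bases before the ribosomal RNA gene RNA5-8SN2. Read on the other strand, its sequence lies within that of the RNA of the small ribosomal subunit. It was identical over all 923 bases to ENSG00000280614 and ENSG00000281181, and 99.6% identical to ENSG00000281383, with 2 mismatches and 2 gap columns. Bases 91 to 150 of each are printed because they hold most of those differences, and capitals mark the bases that differ between ENSG00000280800 and ENSG00000281383.
ENSG00000280800: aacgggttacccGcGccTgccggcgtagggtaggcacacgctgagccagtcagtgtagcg
ENSG00000280614: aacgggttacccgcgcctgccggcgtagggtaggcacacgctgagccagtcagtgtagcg
ENSG00000281181: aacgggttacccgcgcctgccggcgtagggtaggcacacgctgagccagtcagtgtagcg
ENSG00000281383: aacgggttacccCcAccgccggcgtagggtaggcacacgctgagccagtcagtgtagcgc
All 874 stretches of 50 bases and all 824 stretches of 100 bases in ENSG00000280800 occurred in another of these genes. A read inside them has no sequence of its own, and how reads with several matches were counted is not given in the sources used here.

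LINC02324 lies at chr14:65212893-65222347 on the minus strand, with 4 exons and 1442 exonic bases. Of its 1393 stretches of 50 bases 36 occurred elsewhere (2.58%), and 0 of 1343 stretches of 100 bases. It is the 1 member with a promoter in the RefSeq table (GRCh38.p14, chr14:65222298-65222597, minus strand, 250 bases before to 50 after the start), printed because this locus is the one of the chromosome 14 stretch with an annotated start. Capitals mark CG dinucleotides.
LINC02324 promoter: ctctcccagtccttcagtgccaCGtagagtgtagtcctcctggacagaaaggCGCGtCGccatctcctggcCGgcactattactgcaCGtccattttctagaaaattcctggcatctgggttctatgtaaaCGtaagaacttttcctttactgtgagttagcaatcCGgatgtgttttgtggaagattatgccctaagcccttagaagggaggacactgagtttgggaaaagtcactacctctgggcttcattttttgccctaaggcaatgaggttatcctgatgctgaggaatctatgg
The promoter held 8 CG dinucleotides and 47.7% G and C, against medians of 14 and 58.7% over 35116 promoters of the same length. On either strand it held no TATAAA, which 11.5% of all promoters hold. It held no CCAAT, found in 34.6%. It held no GGGCGG, found in 44.95%, and no NF-kB motif, found in 11.3%. No match says only that these letters are absent from this window.

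ENSG00000287526, ENSG00000309897 and ENSG00000309915 are not in the annotation used here, so no sequence is printed and no position is given for them. Their rows in the table do lie beside the others: ENSG00000287526, RPS4XP23 and RPS4XP20 are rows 64834, 64835 and 64836, and ENSG00000309897, ENSG00000309915 and LINC02324 are rows 51246, 51248 and 51249, with the U2 pseudogene RNU2-14P between. Of 53752 consecutive located rows on the same chromosome, 98.2% were in order of start. Row order thus places the unnamed genes in the same stretches, but it does not give their ends, and whether ENSG00000287526 overlaps the pseudogenes was not assessed.

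The chromosome 19 stretch was detected with sgControl in every library and with sgRELA hardly at all. The 3 members held 2372 counts in sgControl, with counts in 18 of 18 libraries, and 13 in sgRELA, with counts in 5 of 18. ENSG00000287526 supplied 85.8% of the sgControl counts, RPS4XP20 11.05% and RPS4XP23 3.16%. All 3 were seen together in 13 sgControl libraries and in 0 sgRELA libraries.

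ENSG00000287526, the strongest of the 7, had 39, 97.5 and 270 counts as the lowest, median and highest sgControl library. In sgRELA it had 2 counts in 1 library (day 6) and 0 in the other 17. With both libraries of an RNA sample added, sgControl had 155, 184 and 282 counts on day 5, 318, 287 and 394 on day 6, and 125, 139 and 151 on day 7. The lowest of these 9 values was far above the single sgRELA value of 2. Summed over days, the level was 9.81 ± 1.54 CPM against 0.00913 CPM (n = 3), and 2035 against 2 counts gave a ratio of 1077 (exact 95% interval 297.6 to 8895, which covers counting error only).

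RPS4XP20, the 772-base copy, had up to 32 counts in a sgControl library, with a median of 13.5. It was at 36, 42 and 37 counts in the day 5 RNA samples of sgControl, 26, 36 and 53 on day 6, and 12, 10 and 10 on day 7. In sgRELA it was not absent: 4 of 18 libraries had 6, 2, 1 and 2 counts. The level over days was 1.26 ± 0.155 CPM with sgControl and 0.0504 ± 0.0481 CPM with sgRELA, and 262 against 11 counts gave a ratio of 25.2 (13.9 to 51.1).

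RPS4XP23, the shorter copy, was low even in sgControl: 10, 12 and 9 counts on day 5, 9, 20 and 10 on day 6, and 1, 4 and 0 on day 7. It had counts in 13 of 18 sgControl libraries and in 0 of 18 sgRELA libraries. With 75 counts against 0 it was at least 26.5-fold higher in sgControl, taking 3 counts over all sgRELA libraries as the limit that a count of 0 allows. It was the member closest to the limit of detection.

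Per kilobase of annotated exon the pseudogenes were alike in sgControl, at 1.58 ± 1.16 CPM per kb for RPS4XP23 and 1.67 ± 0.912 for RPS4XP20 (SD, n = 9 RNA samples). RPS4X was at 301.5 ± 28.01 CPM per kb with sgControl and 304.8 ± 26.3 with sgRELA. Its length here is the 2982 exonic bases of all its transcripts together, not the 1526 of the transcript aligned above. The level of the parent mRNA was nearly the same with both guides while that of the copies was not.

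The chromosome 14 stretch followed the same split. Its 3 members held 936 counts in sgControl, with counts in 18 of 18 libraries, and 19 in sgRELA, in 4 of 18. ENSG00000309897 supplied 58.9% of the sgControl counts, ENSG00000309915 28.95% and LINC02324 12.2%. All 3 were seen together in 14 sgControl libraries and in 0 sgRELA libraries.

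ENSG00000309897 had 119, 34 and 83 counts in the sgControl RNA samples of day 5, 66, 56 and 88 on day 6, and 30, 28 and 47 on day 7. In sgRELA, libraries on days 6 and 7 held 1, 8, 4 and 4 counts and the other 14 held 0. The sgControl libraries ranged from 1 to 74 counts, so single libraries of the 2 guides overlapped, while the RNA samples did not. The level over days was 2.66 ± 0.801 CPM against 0.0783 ± 0.0290 CPM, and the ratio of 551 to 17 counts was 34.3 (21.2 to 59.3).

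ENSG00000309915 was the member with the cleanest split. All 18 sgControl libraries had between 3 and 37 counts, with a median of 14, and all 18 sgRELA libraries had 0. Its RNA samples had 42, 9 and 27 counts on day 5, 38, 31 and 47 on day 6, and 14, 15 and 48 on day 7. The sgControl level was 1.30 ± 0.457 CPM, and 271 counts against 0 put it at least 95.6-fold higher there, against the same limit of 3 counts.

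LINC02324 was the lowest of the chromosome 14 members. It had 15, 5 and 20 counts on day 5, 36, 8 and 12 on day 6, and 12, 5 and 1 on day 7, and 4 sgControl libraries had 0. In sgRELA a single library held 2 counts. The level over days was 0.554 ± 0.343 CPM against 0.00913 CPM, and the ratio of 114 to 2 counts was 60.3 (16.3 to 504.0). Per kilobase it stood at 0.397 ± 0.355 CPM in sgControl, below both RPS4X pseudogenes.

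ENSG00000280800 behaved differently. In sgControl it had 7, 14 and 16 counts in the RNA samples of day 5, 78, 607 and 4 on day 6, and 6, 8 and 7 on day 7. In sgRELA it had 10, 7 and 6 counts, then 5, 5 and 1, then 6, 5 and 4. Apart from 2 day 6 samples the ranges of the guides overlapped.

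A single library held 81.3% of the sgControl counts of ENSG00000280800: library 2 of day 6 replicate 2, with 607 counts, while library 1 of the same RNA had 0. The other high library, with 77 counts, was library 2 of day 6 replicate 1, whose library 1 had 1. Over all libraries the counts were 747 against 49, a ratio of 16.1 (12.1 to 22.0). Without those 2 libraries they were 63 against 49, a ratio of 1.52 (1.03 to 2.26), and the sums over days overlapped. With library 1 alone they were 17 against 27, a ratio of 0.697 (0.356 to 1.33). The higher level with sgControl therefore rests on 2 libraries, and the 2 libraries of one RNA sample did not repeat it.

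**Figure D1:**
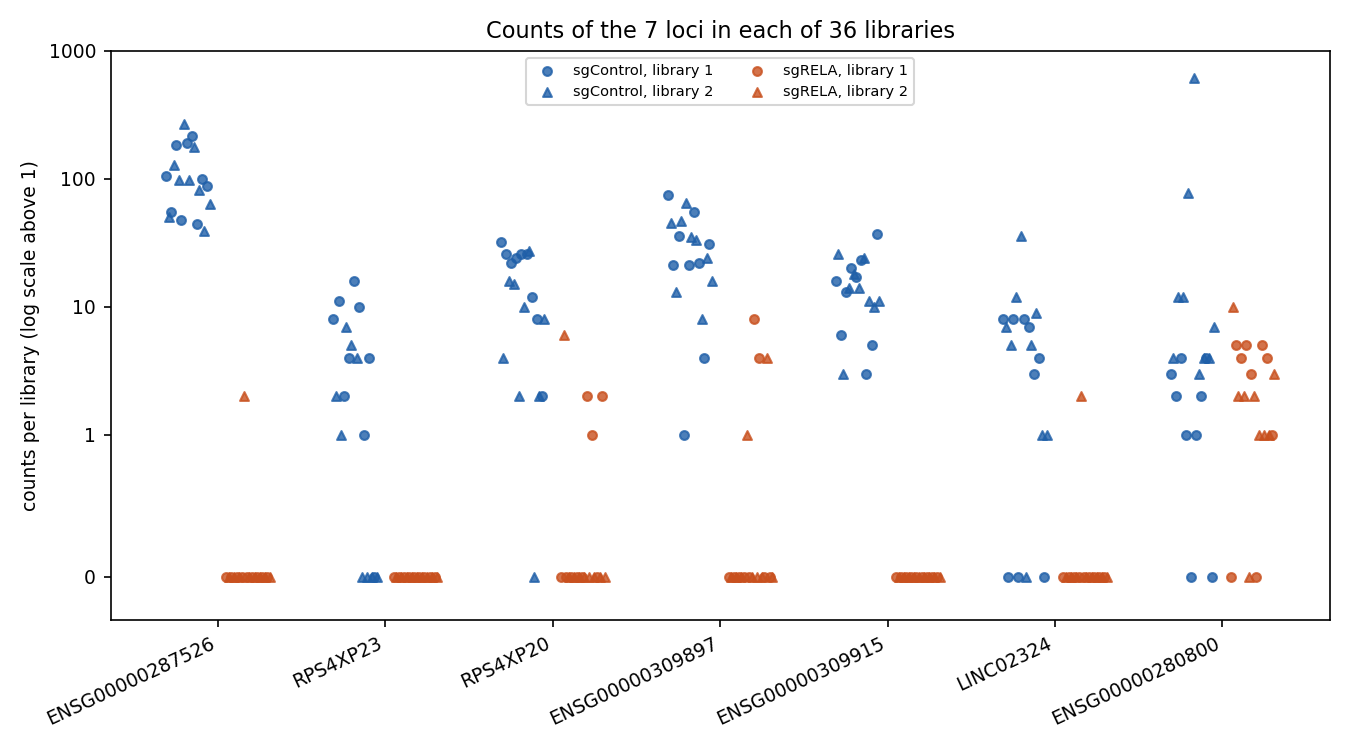
Counts of each locus (horizontal axis) in each of the 36 libraries (vertical axis, logarithmic above 1 and linear below); blue marks sgControl, orange sgRELA, circles library 1 and triangles library 2. The other 6 loci lie at or near 0 in sgRELA, while ENSG00000280800 overlaps between guides apart from 2 sgControl libraries at 77 and 607 counts.

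All 7 members had all 3 sgControl sums above all 3 sgRELA sums, against 5.94% of the 28888 genes tested. This count follows from how the members were chosen and nothing is read from it. It fell to 6 with library 1 alone, without those 2 libraries, and without the 2 RNA samples with few detected genes in library 1. These samples include the library of 77 counts. ENSG00000280800 was the one lost in each case.

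The near-identical copies on chromosome 21 had counts with both guides. ENSG00000281181, identical to ENSG00000280800, had 47 counts with sgControl and 50 with sgRELA, in 14 and 15 of 18 libraries. ENSG00000280614, also identical, had 17 and 7. ENSG00000281383 had 1034 and 472 counts and was seen in 18 of 18 libraries with each guide. It too was carried by single libraries, with 184, 169, 208 and 224 counts in 4 sgControl libraries and 198 in 1 sgRELA library, and 5 to 35 in all others. The sum of the 4 copies had a median of 38.5 counts per library with sgControl (9 to 624) and 22 with sgRELA (9 to 220).

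**Figure D2:**
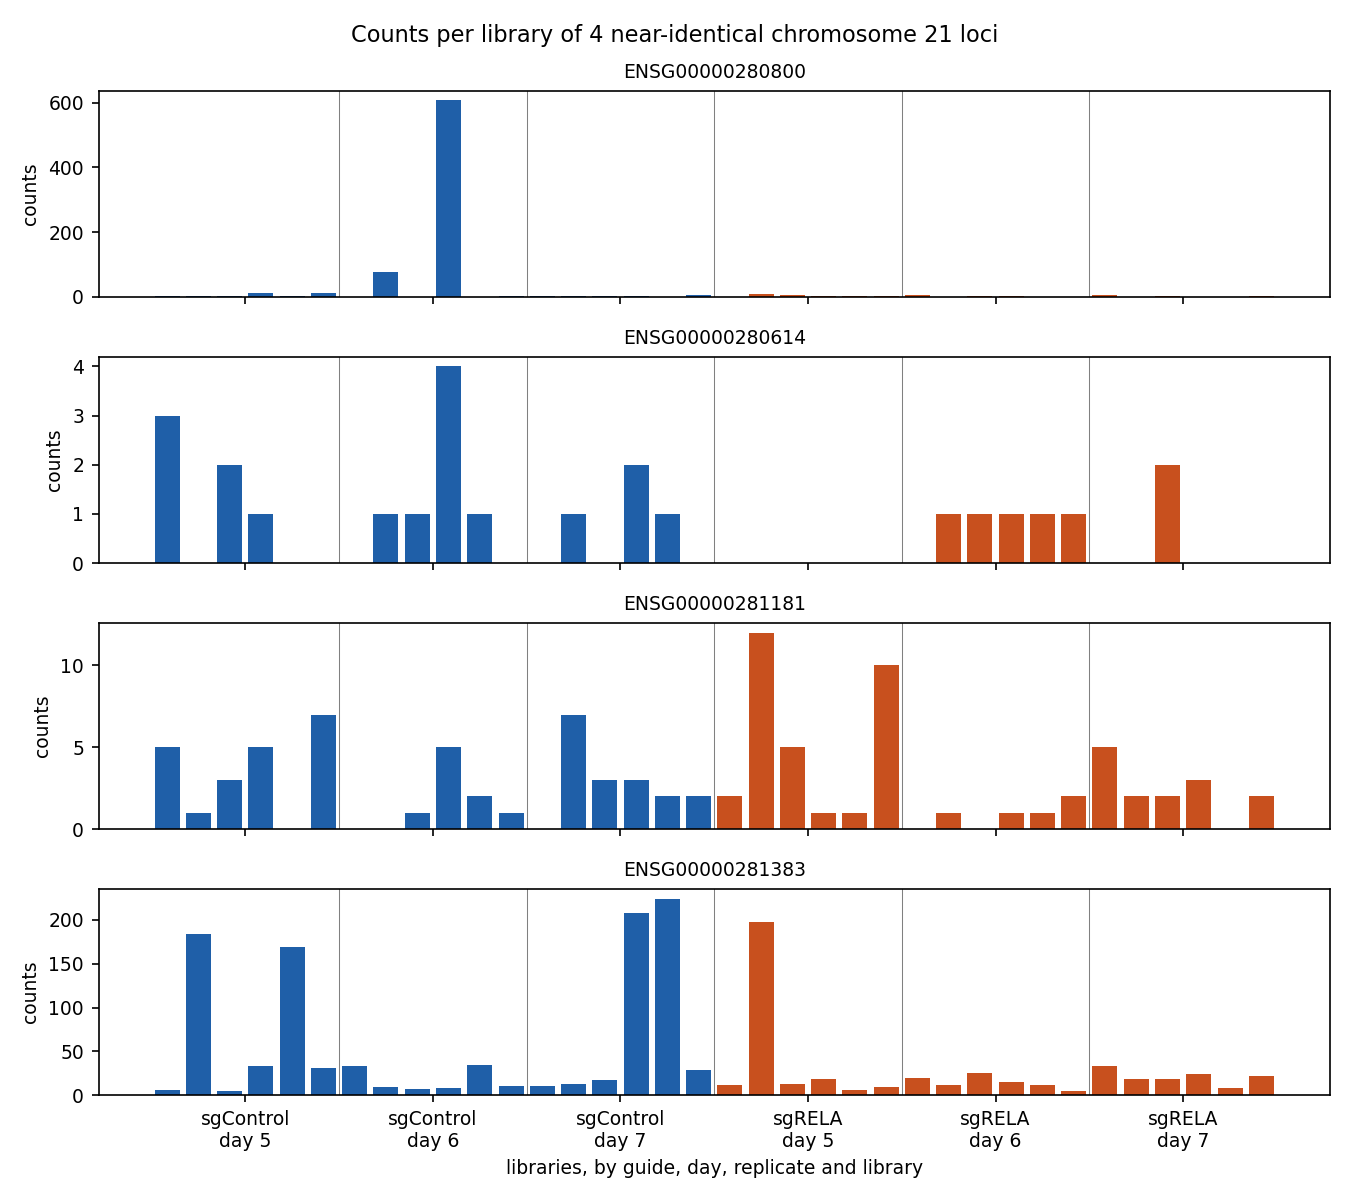
Counts per library of ENSG00000280800 and its 3 near-identical copies, 1 panel each with its own vertical axis; bars are the 36 libraries in order of guide, day, replicate and library, blue for sgControl and orange for sgRELA. ENSG00000280800 has 1 bar at 607 counts, and ENSG00000281383 has 5 bars between 169 and 224.

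The guide contrast of other genes at these loci was not used to choose the members and was tested with edgeR over all 28888 genes, of which 0.363% were called at an adjusted p under 0.05 and 0.121% were called lower with sgRELA. Of 34 located genes within 200 kb of a located member, 21 had any count and 9 could be tested. None of the 9 passed by edgeR or by DESeq2, and 2 had an unadjusted p under 0.05 by each tool. By edgeR these were MAX and ENSG00000281383. The share of all genes with an unadjusted p under 0.05 between guides was not computed, so nothing is read from this count. Their log2 differences (sgRELA minus sgControl) had a median of -0.07 and 8 of 9 were below 0, against a median of -0.0019 and 50.4% below 0 over all genes tested.

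On chromosome 19 the nearest tested genes were LSM14A, an RNA-binding protein of processing bodies, 149.1 kb from RPS4XP20, and KCTD15, 205.9 kb from RPS4XP23. LSM14A was at 196.6 ± 1.89 CPM with sgControl and 187.1 ± 1.93 CPM with sgRELA, a log2 difference of -0.07 ± 0.04 (SE, edgeR adjusted p 0.842). KCTD15 was at 14.5 ± 0.470 and 12.6 ± 2.15 CPM (-0.20 ± 0.13, edgeR adjusted p 0.864). RPS4XP21, a further pseudogene of RPS4X 69.1 kb from RPS4XP20, had 0 counts with sgControl and 1 with sgRELA. Neither of the nearest tested genes was called.

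On chromosome 14 the tested genes nearest to LINC02324 were MAX, the partner of the MYC transcription factor, 110.2 kb from it, and FUT8, a fucosyltransferase, 188.2 kb from it. Row order puts ENSG00000309897 between the tested gene ENSG00000259118 and RNU2-14P. MAX and ENSG00000259118 may thus lie nearer to that member, at distances that are not known. ENSG00000259118 was at 7.90 ± 0.559 CPM with sgControl and 7.79 ± 0.370 CPM with sgRELA (-0.02 ± 0.15, edgeR adjusted p 0.994). MAX was at 73.7 ± 2.06 CPM with sgControl and 65.5 ± 2.55 CPM with sgRELA (-0.17 ± 0.06, p 0.0122, edgeR adjusted p 0.512). FUT8 was at 66.2 ± 5.72 and 65.1 ± 6.09 CPM (-0.02 ± 0.08, edgeR adjusted p 0.989). FUT8-AS1, annotated antisense to FUT8, was at 0.269 ± 0.107 and 0.0736 ± 0.0157 CPM (-1.84 ± 0.90, edgeR adjusted p 0.754), and without known strand its reads and those of FUT8 cannot be told apart. RNU2-14P, which lies 88.4 kb from LINC02324 and was too low to test, had 28 counts in 9 of 18 sgControl libraries and 0 in sgRELA. ENSG00000309930, named after its values were seen, has the row after LINC02324 and had 21 counts in 4 sgControl libraries and 0 in sgRELA.

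**Figure D3:**
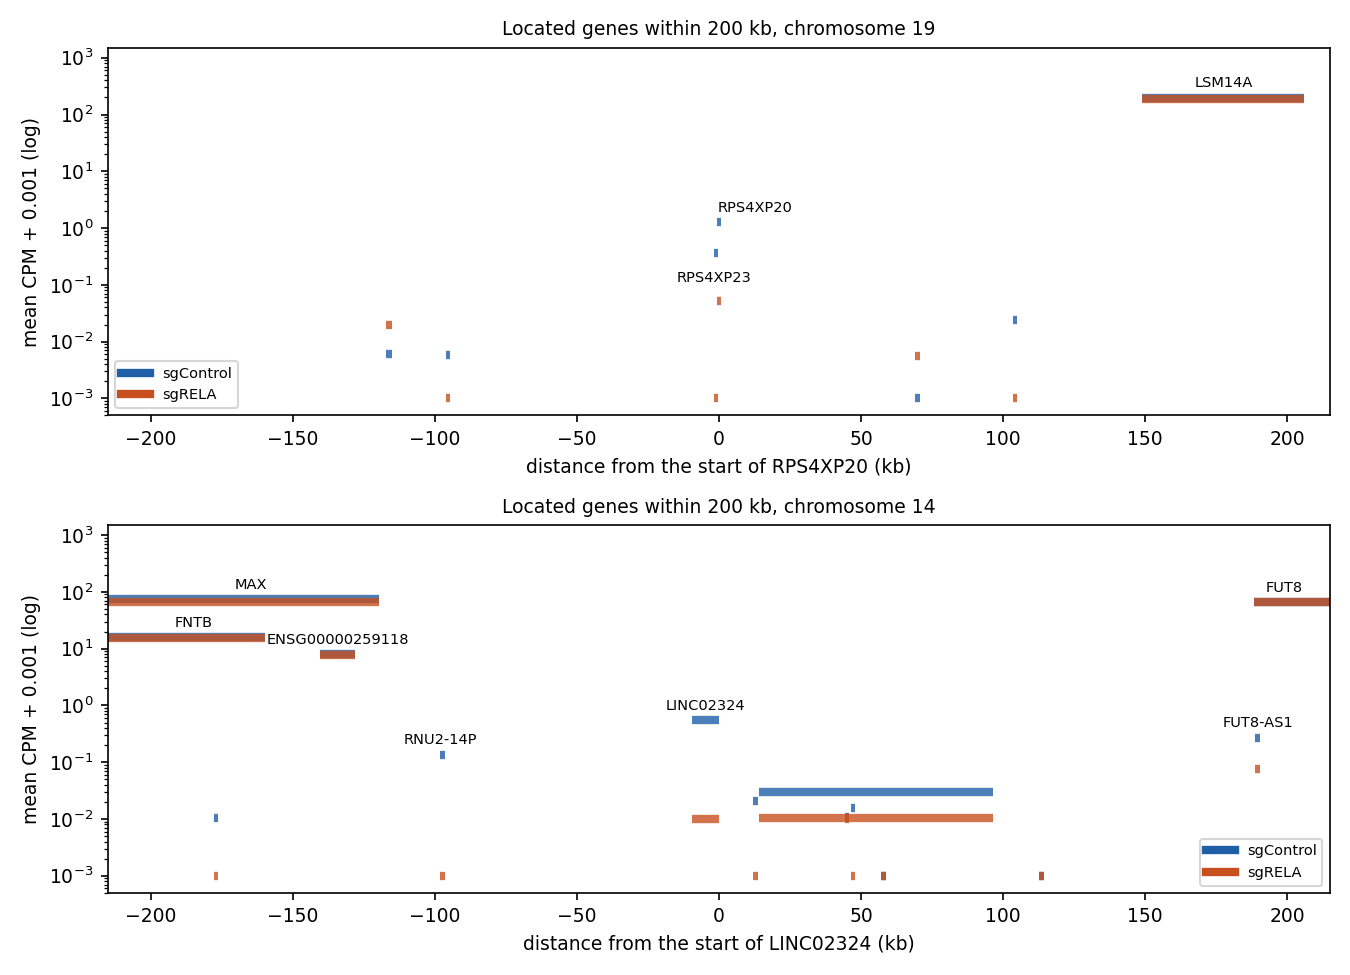
Located genes within 200 kb of RPS4XP20 and of LINC02324, drawn to scale by distance from the start of each in kb (horizontal axis, with short genes widened so that they can be seen), at their mean CPM over the 3 sums plus 0.001 on a logarithmic axis; blue is sgControl and orange sgRELA. The tested neighbours LSM14A, MAX, FNTB, ENSG00000259118 and FUT8 have nearly coinciding bars. Those of the tested neighbour FUT8-AS1 (0.269 and 0.0736 CPM) and of RPS4XP20, RPS4XP23 and LINC02324 lie apart. So do those of untested neighbours with few counts, such as RNU2-14P (0.134 and 0 CPM) and CHCHD2P3 (0.0234 and 0 CPM). The untested neighbours RPS4XP21 (0 and 0.00462 CPM) and SUNO1 (0.00494 and 0.0184 CPM) lie apart the other way.

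The 19 RPS4X family genes other than the 2 members (RPS4X and 18 pseudogenes) were a further comparison, since reads of one can be assigned to another. Of these 15 had any count and 9 could be tested, and 0 were called by edgeR or DESeq2, with 0 at an unadjusted p under 0.05 by either. RPS4X was at 894.9 ± 8.52 CPM with sgControl and 905.8 ± 6.79 CPM with sgRELA (0.02 ± 0.03, edgeR adjusted p 0.973). The smallest p values belonged to RPS4XP22 (0.933 ± 0.348 against 0.631 ± 0.201 CPM, -0.56 ± 0.43, p 0.207), RPS4XP6 (4.05 ± 0.649 against 4.70 ± 1.52 CPM, 0.21 ± 0.23, p 0.375) and RPS4XP18 (0.150 ± 0.0260 against 0.252 ± 0.257 CPM, 0.74 ± 0.89, p 0.417), with edgeR adjusted p of 0.889, 0.945 and 0.953. The median log2 difference was 0.06.

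Of 8 genes of the chromosome 21 ribosomal DNA units, 5 had any count and 4 could be tested. None was called by edgeR or DESeq2, and 1 had an unadjusted p under 0.05 by edgeR and 0 by DESeq2, again with no share over all genes to set beside it. ENSG00000281383 had -1.20 ± 0.37 (p 0.00418, edgeR adjusted p 0.325), ENSG00000278996 -0.28 ± 0.42 (adjusted p 0.968) and ENSG00000280441 0.03 ± 0.39 (adjusted p 0.998). The difference of ENSG00000281383 moved with 1 sgRELA replicate, since without replicate 1, which holds the library of 198 counts, it was -2.01 with an edgeR adjusted p of 0.00972.

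Variation with time was tested within sgControl, and all 7 members passed the filter on low counts, through their sgControl samples. RPS4XP23 passed through days 5 and 6 only, with at most 4 counts in a day 7 sample. RPS4XP20, with 10 to 12 counts in its day 7 samples, would not have passed on day 7 alone either. The low day 7 of both was thus in part set by the filter. For 6 members the contrast of days was not used in choosing them. For ENSG00000280800 it was in effect used, since 689 of its 747 sgControl counts come from day 6, so its days are described and no test is given. From day 5 to day 6, 0 of the other 6 members were called by edgeR, against 3.29% of genes called higher and 5.58% lower. DESeq2 gave an adjusted p for 2 of these 6 and called 0. By edgeR 1 of the 6 had an unadjusted p under 0.05, as did 5786 of the 27553 genes tested. It was ENSG00000287526, which stood at 15.3 ± 2.33 CPM on day 6 and 9.12 ± 2.76 CPM on day 5, with all 3 day 6 values above all 3 of day 5 (as for 11.3% of genes, 0.74 ± 0.35, edgeR adjusted p 0.215). ENSG00000280800 was at 0.545 ± 0.208 CPM on day 5, 10.4 ± 14.6 on day 6 and 0.289 ± 0.0482 on day 7, and its 3 day 6 samples had 78, 607 and 4 counts.

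From day 6 to day 7, 1 of these 6 members was called, against 6.31% of genes called lower and 8.25% higher. ENSG00000287526 fell by 1.42 ± 0.35 on the log2 scale (edgeR adjusted p 0.00566), from 15.3 ± 2.33 to 5.69 ± 0.449 CPM, and all 3 day 7 values were below all 3 of day 6. The call was lost with library 1 alone (-1.10, adjusted p 0.297) and without library 2 of day 6 replicates 1 and 2 (-1.22, adjusted p 0.0919). Leaving out single RNA samples of those days kept it, with adjusted p from 0.0106 to 0.0403.

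RPS4XP20 and RPS4XP23 were lowest on day 7, though neither difference passed and both entered the test through days 5 and 6. RPS4XP20 was at 1.70 ± 0.192 CPM on day 5, 1.74 ± 0.549 on day 6 and 0.439 ± 0.0521 on day 7 (day 7 minus day 6, -1.98 ± 1.00, edgeR adjusted p 0.216). RPS4XP23 was at 0.458 ± 0.0818, 0.592 ± 0.260 and 0.0708 ± 0.0892 CPM (-2.99 ± 1.70, edgeR adjusted p 0.297). ENSG00000309897 was at 3.45 ± 1.83, 3.21 ± 0.699 and 1.43 ± 0.367 CPM (-1.16 ± 0.72, edgeR adjusted p 0.349).

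All 3 day 7 values lay below all 3 day 6 values for 4 of the 7 members (ENSG00000287526, RPS4XP23, RPS4XP20 and ENSG00000309897), against 14.1% of genes, and below all 3 day 5 values for 3 (the chromosome 19 members), against 14.3%. Both counts include RPS4XP23 and RPS4XP20, which passed the filter through days 5 and 6, where they were higher. The counts are therefore not read against these shares. Between day 7 and day 5 edgeR called 0 of the same 6 members, against 6.36% of genes called lower and 6.65% higher, and 0 of the 6 had an unadjusted p under 0.05, as 6721 of 27553 genes did. DESeq2 gave an adjusted p for 4 of the 6 and called 0. ENSG00000309915 (1.14 ± 0.715, 1.77 ± 0.357 and 1.04 ± 0.741 CPM) and LINC02324 (0.583 ± 0.324, 0.884 ± 0.766 and 0.250 ± 0.231 CPM) overlapped between all days. All 7 members had their lowest sgControl mean on day 7, ENSG00000280800 included. The share of all genes with their lowest mean on day 7 was not computed, and members of one stretch may not vary independently. Nothing is read from this count. Of the 6 tested, ENSG00000287526 passed against day 6 and the other 5 did not.

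**Figure D4:**
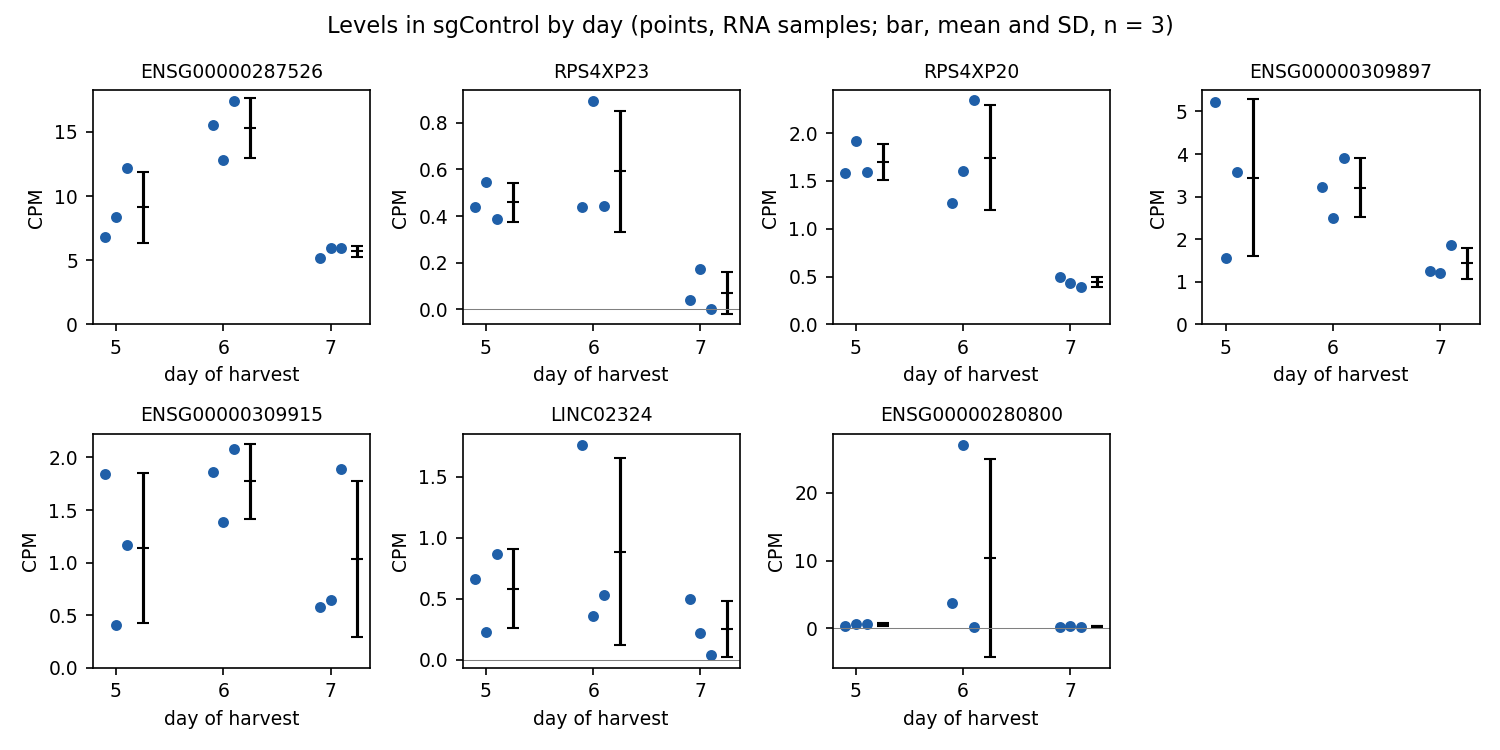
Level of each locus in sgControl (vertical axis, CPM) by day of harvest (horizontal axis); points are the 3 RNA samples of a day and the black bar is their mean with SD. ENSG00000287526 is highest on day 6 and lowest on day 7, and the day 6 spread of ENSG00000280800 comes from 1 point.

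The same split was looked for in the whole table, as a description. Of 22513 genes with at least 100 counts over the 9 sgControl RNA samples, 14 had an sgRELA level under 0.1 of the sgControl level. Of the 7 members 6 were among them, which restates how they were chosen. ENSG00000280800 was one of these 6 (ratio 0.0593) with 81.3% of its counts in 1 RNA sample, and RPS4XP23 lacked the minimum with 75 counts. In the opposite direction 15 of 22760 genes did. The lowest ratios of sgRELA to sgControl were 0 for ENSG00000309915, 0.000971 for ENSG00000287526, 0.00565 for FLG, 0.0170 for LINC02324, 0.0177 for CBARP-DT, 0.0247 for TNNI1, 0.0322 for ENSG00000309897, 0.0356 for CBARP, 0.0404 for RPS4XP20 and 0.0423 for LRATD1. FLG, which encodes the skin protein filaggrin, had its 175 counts in 4 of 9 RNA samples with 50.3% in 1. The 5 members in this list had counts in 9 of 9 RNA samples, as did CBARP-DT and CBARP, and TNNI1 and LRATD1 had counts in 8.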

How the data were processed

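The deposited table holds the authors' raw gene counts for 36 libraries, not normalized. Per the submitters' processing notes, cutadapt 1.18 and STAR 2.7.9a were used with GRCh38. The counting tool, annotation, strand setting and treatment of reads with several matches are not given in the sources used here, so counts of near-identical copies and of overlapping or antisense genes are uncertain.

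The members and the gene lists were chosen with earlier results of these data known. Both libraries made from the same RNA were summed and not used as replicates. Guides were compared on 3 sums over days per guide, and days on the 18 RNA samples in 1 model, with edgeR 4.0.16 in R 4.3.3 (TMM, filterByExpr with a minimum count of 10, quasi-likelihood F test, Benjamini-Hochberg adjustment over all genes tested, threshold 0.05). SEs come from the F statistic. DESeq2 1.42.0 was an alternative. Ratios of summed counts carry exact 95% intervals, which cover counting error only, since no molecular identifiers are named. Positions and transcripts come from GENCODE v29, promoters from RefSeq, and names from a table that matched 57693 of 74628 genes. No 2 library columns were identical. The tests were tried on simulated data with known changes, but no outcome of that trial is given, so it lends the calls here no support.

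Named were the 7 members, RELA, the genes of each list that passed or otherwise the 3 with the smallest p, the nearest tested genes on each side, and up to 10 genes with the lowest ratio between guides. Alternatives were DESeq2, its size factors, no filter on low counts, each library set alone, each replicate left out and a replicate block. A further one left out sgControl day 5 replicate 2 and day 6 replicate 1, which had few detected genes in library 1. Their library 1 had 25398 and 26526 detected genes, and their library 2 had 27600 and 28345. Leaving out 2 libraries was added after seeing the data.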

Additional observations from a re-analysis of the deposited data

Results flagged for a closer look

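In 3 of the 23 sets of 6 libraries (1 member, guide and day) that held more than 10 counts, the highest library lay farther from the others than the range of the set allows at the 95% level. The rule flags about 1 in 20 sets of independent normal values, and these low values from paired libraries are not such. Nothing is therefore read from 3 of 23, and 42 sets exist in all. ENSG00000280800 was at 56.5 CPM (607 counts) in library 2 of sgControl day 6 replicate 2, and the other 5 libraries were at 6.78 CPM or less. LINC02324 was at 3.17 CPM (36 counts) in library 2 of sgControl day 6 replicate 1, with the others at 0.723 CPM or less. ENSG00000309915 was at 3.01 CPM (37 counts) in library 1 of sgControl day 7 replicate 3, with the others at 0.925 CPM or less. In none of these 3 cases did the other library of the same RNA sample reach the level of the high one. Library 2 of sgControl day 6 replicate 1 was also the second highest library of ENSG00000280800 with 77 counts and the highest of ENSG00000287526 with 270. Their cause was not tested.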

How the results depend on the processing

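Between guides, the count of neighbours called and that of ribosomal DNA genes called were each 1 with no filter on low counts, and 0 to 1 when single replicates were left out. The 1 gene was ENSG00000281383 in both lists and both settings (-1.20, edgeR adjusted p 0.00102, with no filter). Genes of the RPS4X family stayed at 0 called in every alternative run.

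The counts of members called between days include ENSG00000280800, whose day 6 counts led to its choice, so they are no support for it: over all 7 members they were 1 for day 6 against day 5, 0 for day 7 against day 5 and 2 for day 7 against day 6. For day 6 against day 5, the count was 0 with library 1 only and 0 without library 2 of sgControl day 6 replicates 1 and 2, and 0 to 1 when single replicates were left out. For day 7 against day 6 it was 0 and 0 in the same settings, and 1 to 2 when single replicates were left out. These settings remove samples, and the cause of a lost call beyond that was not tested. For day 7 against day 5 it was 0 in every alternative run.

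Among refitted day differences of single members, 251 kept their direction and call, 4 lost the call (2 each of ENSG00000287526 and ENSG00000280800) and 14 changed sign, and those 14 had not passed the test. Day 6 minus day 5 of ENSG00000309897 was 0.37 with library 2 only, and ranged from -0.46 to 0.32 with single replicates left out. That of LINC02324 was -0.78 without the 2 RNA samples with few detected genes in library 1 and -0.47 without the 2 libraries. It ranged from -0.40 to 0.99 with single replicates left out. That of RPS4XP23 ranged from -0.059 to 0.53 and that of RPS4XP20 from -0.24 to 0.21. Day 7 minus day 5 of ENSG00000309915 was 0.28 with library 1 only and ranged from -0.90 to 0.40.

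With the replicate block, 1, 0 and 2 members were called for day 6 against 5, 7 against 5 and 7 against 6, and 0 neighbours, 0 genes of the RPS4X family and 0 ribosomal DNA genes between guides. The block changed no call reported here. Deviations of same-numbered samples correlated at 0.0193, -0.000866 and 0.0139 between guides, and at -0.112 to 0.0447 between days, so the numbers were not taken as pairs. Over all genes, calls between guides were 105 in the reported fit, 124 with the block, 235 with DESeq2 and 221 with no filter. They were 42 with library 1 only, 49 with library 2 only and 66 to 79 without single replicates. Without the 2 RNA samples with few detected genes in library 1 they were 60.

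The sgControl libraries of RPS4XP23, RPS4XP20 and LINC02324 had medians of 3, 13.5 and 5 counts. A detection limit at these counts was not tested.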
